A study of Mus musculus with 8 samples.

Results

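Gdpd3 encodes a glycerophosphodiester phosphodiesterase, and its transcript was followed here together with those of its family and of its chromosomal neighbours in regulatory T cells (Tregs). The set listed 8 genes: the family members Gdpd1, Gdpd2, Gdpd3, Gdpd4, Gdpd5 and Gde1, and Mapk3 and Ypel3, which lie beside Gdpd3 on mouse chromosome 7. Of these, 7 had a probe set annotated to that symbol alone, 1 probe set each, among the 19937 genes tested. Mapk3 was not analysed here. Gdpd3 was picked because it had the largest difference between the groups in these arrays, so its values are a description and carry no test. The others were picked by family or place.

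The IIKO chimeras were CD3ε-/- mice that had been lethally irradiated and given bone marrow from donors labelled IIKO. The WT chimeras were CD3ε-/- mice treated the same way and given wild-type marrow. The labels state that Tregs of the IIKO chimeras lacked peripheral contact of the T cell receptor (TCR) with MHC class II, and do not name the class II gene involved. All animals are labelled C57BL/6, aged 6 to 8 weeks, without saying whether this holds for donors, recipients or both, and as background the recipients' own non-haematopoietic cells survive irradiation. At day 28, CD4+ TCRβ+ CD25+ cells were sorted from peripheral lymph nodes and spleen, and RNA of 4 biological replicates per group was hybridized to 1 Affymetrix whole-transcript array each. The labels do not say how many mice a replicate pooled, so the spread behind each p-value is that between samples and may be partly technical.

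Glycerophosphodiesterases cleave glycerophosphodiesters, which are built like phospholipids that have lost acyl chains, typically into a glycerol phosphate and an alcohol. GDPD1 and GDPD3 are membrane enzymes that act as lysophospholipases D: they cut lysophospholipids to lysophosphatidic acid (LPA), a signalling lipid, and release N-acylethanolamines from their precursors. The other members prefer different substrates, among them glycerophosphoinositol for GDE1 and GDPD2 and the glycosylphosphatidylinositol anchors of surface proteins for GDPD5.

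The genomic windows before the start sites of Gdpd3 and Ypel3 are shown because these genes are adjacent and had unlike differences between the groups. Each line gives 250 bases upstream of the RefSeq start (GRCm38.p6), 5′ to 3′, with CG dinucleotides in capitals. The Gdpd3 window is chr7:126766164-126766413 and the Ypel3 window is chr7:126776713-126776962, both on the plus strand.
Gdpd3: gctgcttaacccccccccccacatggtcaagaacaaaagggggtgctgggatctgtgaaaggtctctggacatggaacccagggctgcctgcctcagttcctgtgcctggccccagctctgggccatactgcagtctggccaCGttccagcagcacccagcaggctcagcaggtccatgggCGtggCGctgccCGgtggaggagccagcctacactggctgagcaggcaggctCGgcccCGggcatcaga
Ypel3: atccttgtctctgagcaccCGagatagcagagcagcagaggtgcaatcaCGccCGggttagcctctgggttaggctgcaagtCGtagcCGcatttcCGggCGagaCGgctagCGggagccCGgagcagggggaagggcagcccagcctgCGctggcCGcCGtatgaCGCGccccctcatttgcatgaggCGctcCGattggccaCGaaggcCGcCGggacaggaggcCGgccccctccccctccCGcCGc
The Gdpd3 window held 6 CG dinucleotides, the same as the median over 32851 RefSeq windows of this length, and the Ypel3 window held 23, with fewer in 86.7% of all windows. RefSeq entries matched 6 of the 8 genes. The Gdpd1 window had 18 CG, that of Gde1 14, that of Gdpd4 7 and those of Gdpd2, which has a pair of listed starts, 2 and 7. The letters TATAAA, searched on both strands, occurred in 1 of the Gdpd2 windows and in none of the other members' windows, against 12.4% of all windows. The letters CCAAT, searched likewise, occurred in the windows of Ypel3, Gde1, Gdpd4 and 1 of Gdpd2 but not in those of Gdpd3 and Gdpd1, against 33.8% of all windows. Neither motif contains the other or a CG, and these matches describe letters alone.

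Gdpd3 transcripts were high in every IIKO array and low in every WT array. The probe set (10557470) read 12.14, 12.06, 11.67 and 11.90 on the log2 scale in IIKO replicates 1 to 4, against 5.70, 5.53, 5.70 and 6.38 in WT replicates 1 to 4. The values are log2 expression after RMA, the authors' background correction, normalization and summary over the probes of a set. The lowest IIKO array exceeded the highest WT array by 5.29 log2, while the IIKO arrays spanned 0.47 and the WT arrays 0.85. The means were 11.94 ± 0.21 in IIKO and 5.83 ± 0.38 in WT chimeras (SD, n = 4 arrays each). They were apart by 6.11 ± 0.17 (log2, SE), or 69.3-fold. Among the WT arrays, replicate 4 stood above the other three. The WT mean lay below the lower quartile of gene signals (6.04), though WT replicate 4 lay above it. No background measure was used here, so the fold depends on a low level whose distance from background is not known.

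**Figure D1:**
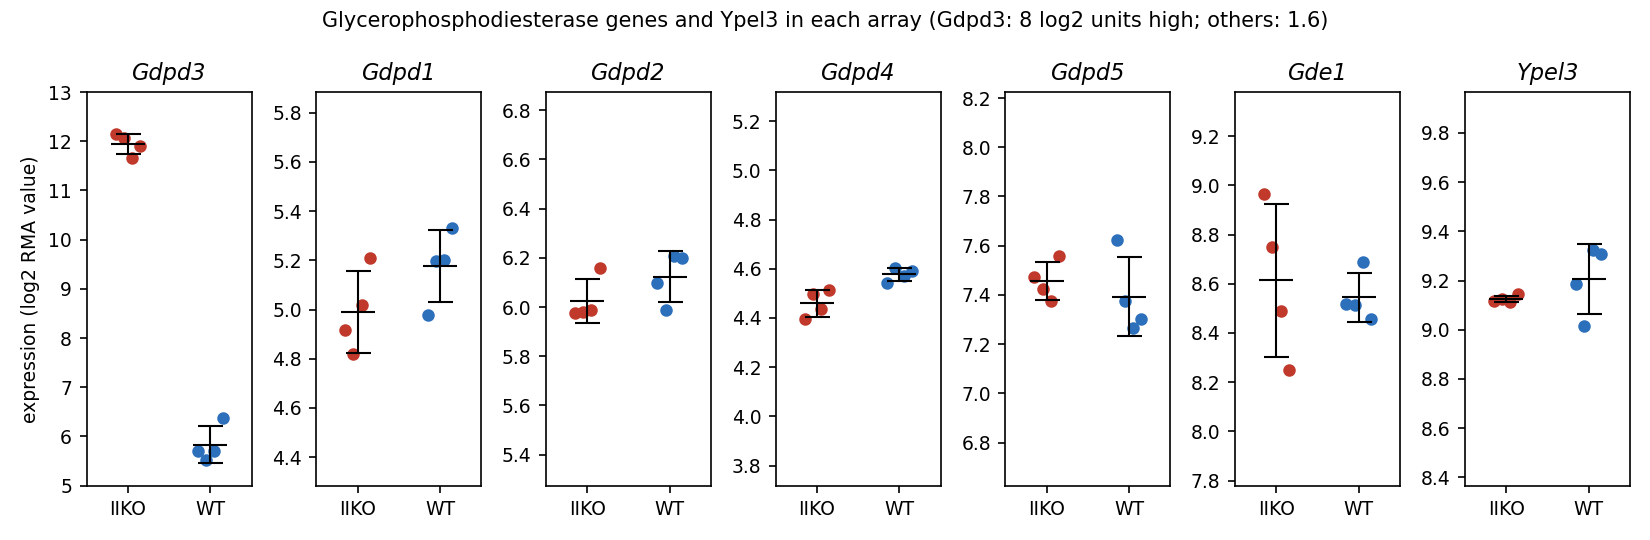
Log2 RMA expression of Gdpd3, Gdpd1, Gdpd2, Gdpd4, Gdpd5, Gde1 and Ypel3 in each array (points; IIKO red, WT blue), with the mean and SD of 4 arrays in black. The y axis spans 8 log2 units for Gdpd3, whose IIKO arrays lie at 11.67 to 12.14 and WT arrays at 5.53 to 6.38, and 1.6 units for each other gene, where Gdpd4 alone has groups that do not overlap.

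None of the other 6 measured genes passed the test between IIKO and WT chimeras, for which 0.286% of all genes tested passed (limma, Benjamini-Hochberg adjusted p under 0.05 over 19937 genes). Without adjustment (limma p under 0.05), 1 of the 6 was past, Gdpd4, against 17.3% of all genes. Their differences ran from -0.19 to 0.07 log2, 4 negative and 2 positive, with a median of -0.09 against -0.04 over all genes. The largest in size, that of Gdpd1, was exceeded by 14.6% of all genes.

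Gdpd1 is the enzyme closest in activity to Gdpd3. Its probe set (10389590) read 4.92, 4.82, 5.02 and 5.21 in IIKO replicates 1 to 4, against 4.98, 5.20, 5.20 and 5.33 in WT replicates 1 to 4. The groups overlapped, and replicate 4 was the highest array of either group. The difference was -0.19 (95% confidence interval -0.40 to 0.03, limma adjusted p = 0.341). Gdpd1 lies on chromosome 11, where the next tested gene is Ypel2, so both lysophospholipase D genes have a Yippee-like gene as their next tested neighbour. Ypel2 was at 6.85 ± 0.26 in IIKO and 6.92 ± 0.22 in WT chimeras (SD, n = 4 arrays each; limma adjusted p = 0.831).

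Gdpd4, on chromosome 7, read 4.39, 4.50, 4.44 and 4.51 in IIKO arrays and 4.54, 4.60, 4.57 and 4.59 in WT arrays (probe set 10555135). Every IIKO array lay below every WT array, by 0.03 at the closest, a separation that 10.5% of all genes also showed in either direction. The difference was -0.12 (95% confidence interval -0.23 to -0.0025, limma adjusted p = 0.28). These signals, like those of Gdpd1, were below the lower quartile of gene signals in all 8 arrays, and their distance from background is not known.

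Gdpd2, known in mouse for its part in osteoblast differentiation, lies on the X chromosome. Its probe set (10601044) read 5.97, 5.98, 5.99 and 6.16 in IIKO arrays, against 6.10, 5.99, 6.21 and 6.20 in WT arrays. The groups overlapped, with IIKO replicate 4 apart from the other IIKO arrays (difference -0.10, 95% confidence interval -0.25 to 0.06, limma adjusted p = 0.473).

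Gdpd5 encodes a transmembrane enzyme that releases anchored surface proteins and promotes the differentiation of motor neurons in chick and mouse. Its probe set (10555205) read 7.47, 7.42, 7.37 and 7.56 in IIKO arrays, against 7.62, 7.38, 7.27 and 7.30 in WT arrays. All IIKO values lay within the WT range (difference 0.07, 95% confidence interval -0.12 to 0.25, limma adjusted p = 0.699). The difference was 0.14 without WT replicate 1, and 0.02, 0.04 and 0.03 without WT replicate 3, WT replicate 4 and IIKO replicate 4.

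Gde1, whose product acts on glycerophosphoinositol and on precursors of N-acylethanolamines, varied more among IIKO than among WT arrays. Its probe set (10567335) read 8.97, 8.75, 8.49 and 8.25 in IIKO replicates 1 to 4, against 8.52, 8.52, 8.69 and 8.46 in WT replicates 1 to 4. The IIKO arrays spanned 0.72 log2 and lay both above and below the WT span of 0.23. The difference was 0.07 (95% confidence interval -0.23 to 0.37, limma adjusted p = 0.81) and turned to -0.05 without IIKO replicate 1.

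Ypel3, a small Yippee-like protein that restrains growth in human cells, is the next tested gene after Gdpd3 in chromosome order. Its probe set (10557481) read 9.12, 9.13, 9.11 and 9.14 in IIKO arrays, against 9.19, 9.02, 9.32 and 9.31 in WT arrays. The IIKO arrays lay inside the WT range and close together. The difference was -0.08 (95% confidence interval -0.24 to 0.08, limma adjusted p = 0.564), or -0.15 without WT replicate 2, -0.04 without WT replicate 3 and -0.05 without WT replicate 4. On the other side the nearest tested gene was Coro1a, an actin regulator of lymphocytes, at 11.62 ± 0.02 in IIKO and 11.60 ± 0.01 in WT chimeras (SD, n = 4 arrays each; limma adjusted p = 0.822). Neither flanking tested gene passed the test. Gdpd3 was picked for the largest difference of all genes, so a smaller difference in its neighbours was fixed in advance. Mapk3, listed as a neighbour, was not analysed.

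**Figure D2:**
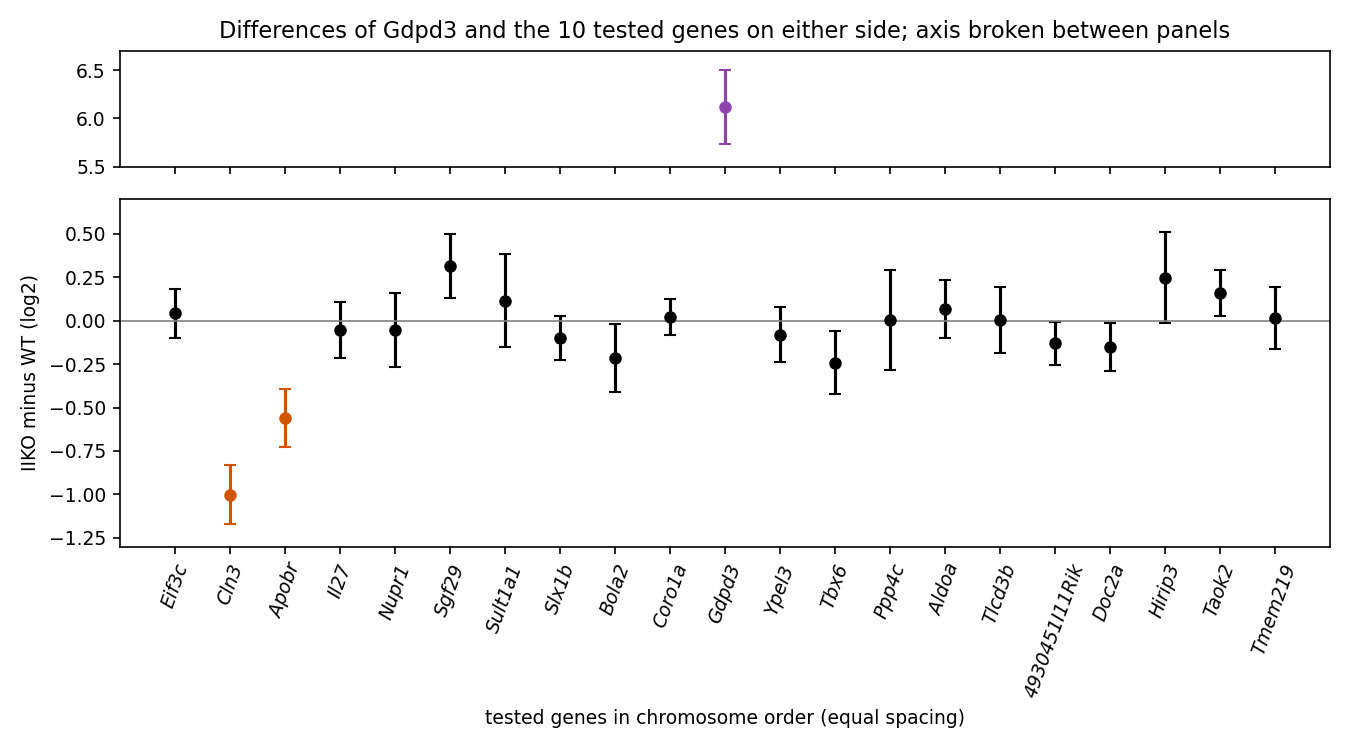
IIKO minus WT difference (log2, y axis, broken between the panels; bars are 95% confidence intervals) of Gdpd3 (purple) and the 10 tested genes on either side in chromosome order (x axis, equal spacing). Gdpd3 is at 6.11, Cln3 at -1.0 and Apobr at -0.56 (orange, past the test), and the other 18 genes lie between -0.24 and 0.31.

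Of the 10 tested genes on either side of Gdpd3, 2 fell, 0 rose and 18 did not pass, against 0.125% of all genes that fell (limma, adjusted p under 0.05). Without adjustment (limma p under 0.05), 2 of the 20 lay higher and 6 lower in IIKO chimeras, against 5.27% and 12% of all genes. Neither of those that fell is next to Gdpd3: Apobr is separated from it by 7 tested genes, and Cln3 is next to Apobr. Order and names come from a RefSeq table (GRCm38.p6), and the array annotation names no build.

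Cln3 encodes a lysosomal membrane protein that cells need to clear glycerophosphodiesters from lysosomes, so it works with the same class of molecules as the enzymes above. It read 8.70, 8.44, 8.38 and 8.42 in IIKO arrays, against 9.48, 9.59, 9.47 and 9.42 in WT arrays. Every IIKO array lay below every WT array, and the difference was -1.0 ± 0.08 log2 (SE; limma adjusted p = 0.000302). Cln3 passed whichever array was left out.

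Apobr, a receptor for apolipoprotein B in lipid-rich particles, read 7.37, 7.56, 7.49 and 7.52 in IIKO arrays. In WT arrays it read 8.06, 7.92, 8.23 and 7.98. The groups did not overlap, and the difference was -0.56 ± 0.08 (SE; limma adjusted p = 0.0144). Apobr did not pass without WT replicate 1, IIKO replicate 1 or IIKO replicate 3 (adjusted p from 0.0199 to 0.0602 over the arrays left out).

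Of the 7 measured genes, 5 lie on chromosome 7, in the order Gdpd4, Gdpd5, Gde1, Gdpd3 and Ypel3. Between the outermost, Gdpd4 and Ypel3, lie 457 other tested genes, of which 4 rose and 8 fell, or 2.63%, against 0.286% of all genes in either direction (limma, adjusted p under 0.05). On the rest of chromosome 7, 4 of 1272 passed. Those that fell include Trim30d (-4.43), Trim12a (-3.80), Cln3, Dnajb13 (-0.96) and Lrrc32 (-0.74), and Trim12c (1.43), Trim34a (0.83) and Trim68 (0.57) rose. The gene models Gm1966 (-2.18) and Gm4759 (-2.15) fell by more than Cln3, and the gene model Gm8995 (0.36) rose. Trim34a, Trim12a, Trim12c and Trim30d lie in a cluster of closely related copies, at places 174 to 178 of the gene order from Gdpd4. Whether probe sets share signal between them was not tested. Trim68 lies apart from this cluster, at place 92. Lrrc32, which encodes the Treg surface protein GARP, lies between Gdpd4 and Gdpd5, with 6 tested genes between it and Gdpd4 and 8 between it and Gdpd5. Gdpd4 and Gdpd5 thus lay close to a gene that fell and did not pass themselves. For Gde1 the nearest gene past the test was Cln3, 83 tested genes away. No genotype was used here, so sequence differences between the donors at these genes were not examined, and other effects of the donor marrow cannot be told apart from the loss of MHC class II contact.

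**Figure D3:**
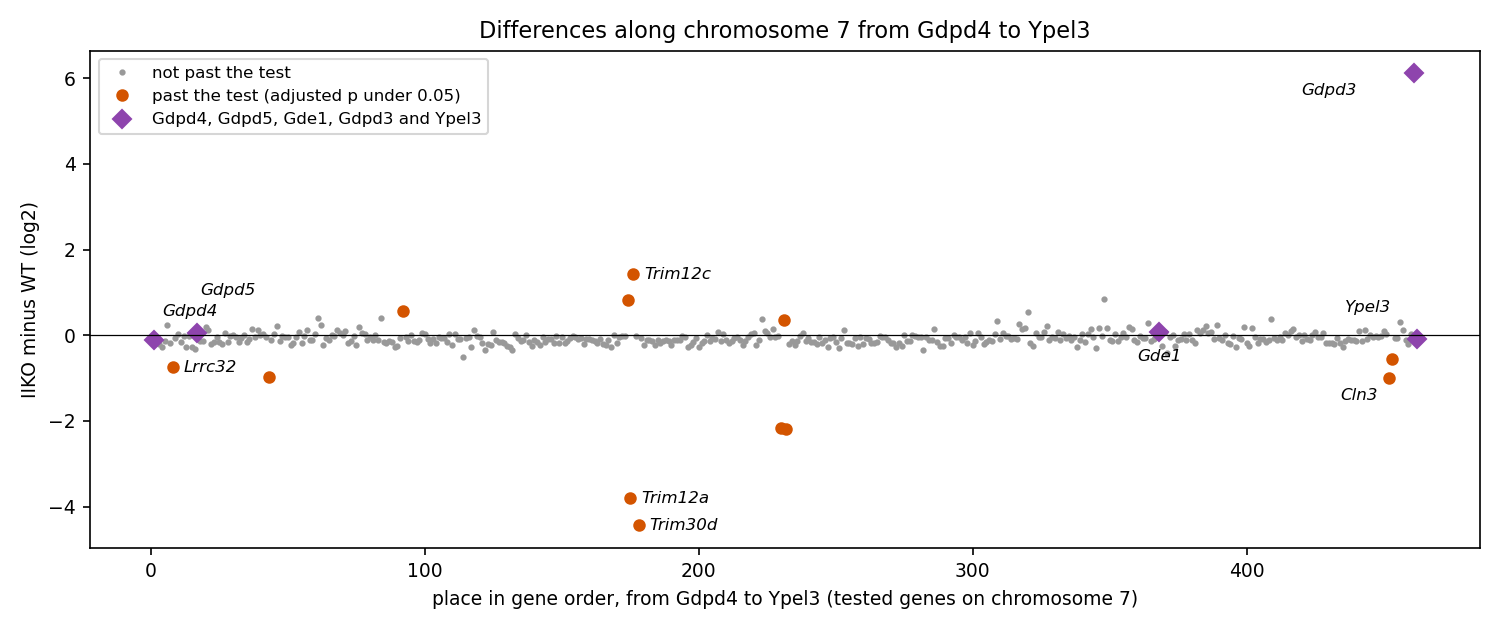
IIKO minus WT difference (log2, y axis) of the 462 tested genes of chromosome 7 from Gdpd4 to Ypel3, in gene order (x axis). Orange points passed the test, purple diamonds are Gdpd4, Gdpd5, Gde1, Gdpd3 and Ypel3; Gdpd3 stands alone at 6.11, while the largest falls, Trim30d (-4.43) and Trim12a (-3.80), lie mid-way.

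The genes whose levels most resembled Gdpd3 over the 8 arrays were Dnah8, an axonemal dynein (Pearson's r = 0.986), Trim26 (0.984), the ubiquitin ligase gene Ubr2 (0.971), Mynn (0.971) and Glo1, which detoxifies methylglyoxal (0.97). Dnah8, Trim26, Ubr2 and Glo1 lie on chromosome 17 and Mynn on chromosome 3. The lowest r were of Trim30d (-0.997), Trim12a (-0.994) and Cda (-0.984). With groups so far apart for Gdpd3, r mostly records how cleanly a gene separates the groups: Ubr2 differed by 0.15 and Cda by -0.12, against 1.42 for Dnah8. Of the other members, r with Gdpd3 ran from -0.84 for Gdpd4 to 0.27 for Gdpd5.

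Genes that make, use or break down LPA and N-acylethanolamines showed 0 of 25 measured members past the test, against 0.286% of all genes (limma, adjusted p under 0.05), a share at which a list of this size would seldom hold any. Without adjustment (limma p under 0.05), 2 lay higher and 5 lower in IIKO chimeras, against 5.27% and 12% of all genes, and the median difference was -0.06, against -0.04 over all genes. Acp6, a phosphatase that removes LPA, was at 8.20 ± 0.03 in IIKO and 7.92 ± 0.13 in WT chimeras (SD, n = 4 arrays each; limma adjusted p = 0.151). Enpp6, another glycerophosphodiesterase, acting on choline-containing substrates, was at 5.81 ± 0.05 in IIKO and 6.04 ± 0.11 in WT chimeras (SD, n = 4 arrays each; limma adjusted p = 0.168). Plpp3, a surface lipid phosphatase that inactivates LPA, was at 5.73 ± 0.06 in IIKO and 5.96 ± 0.13 in WT chimeras (SD, n = 4 arrays each; limma adjusted p = 0.193).

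Among genes of lysophospholipid and glycerophosphodiester turnover, 1 of 37 measured fell and 36 did not pass, against 0.125% of all genes that fell (limma, adjusted p under 0.05). That gene was Lclat1, an acyltransferase that remodels lysophospholipids including lysocardiolipin, on chromosome 17. It read 9.51, 10.02, 9.59 and 9.85 in IIKO arrays, against 10.27, 10.41, 10.35 and 10.55 in WT arrays, with no overlap (difference -0.65 ± 0.11, SE; limma adjusted p = 0.0475). It passed only without IIKO replicate 2 when arrays were left out in turn (adjusted p from 0.0267 to 0.131). Without adjustment (limma p under 0.05), 7 of the 37 lay higher and 2 lower in IIKO chimeras, against 5.27% and 12% of all genes. The list median was 0.06, against -0.04 over all genes. Lypla2, a thioesterase of the lysophospholipase family, differed by 0.35 ± 0.09 and Plbd1, a phospholipase B-like protein, by 0.47 ± 0.13 (log2, SE; limma adjusted p = 0.16 and 0.167).

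The ERK cascade, the kinase pathway to which the product of Mapk3 belongs, had 0 of 23 measured genes past the test, against 0.286% of all genes (limma, adjusted p under 0.05). Without adjustment, 3 lay higher and 0 lower in IIKO chimeras, against 5.27% and 12% of all genes, and the list median was 0.07, against -0.04 over all genes. The 3 were the Ras exchange factor genes Sos1 (0.22 ± 0.07) and Sos2 (0.18 ± 0.06) and Spred1 (0.29 ± 0.11), an inhibitor of the pathway (log2, SE; limma adjusted p = 0.181, 0.189 and 0.236). The other 4 Yippee-like genes had 0 past the test, against 0.286% of all genes. Without adjustment (limma p under 0.05), 1 of the 4 lay lower, against 12% of all genes, and their median was -0.13. Of these, Ypel5 differed by -0.19 ± 0.09 and Ypel1 by -0.21 ± 0.16 (log2, SE; limma adjusted p = 0.281 and 0.505).

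**Figure D4:**
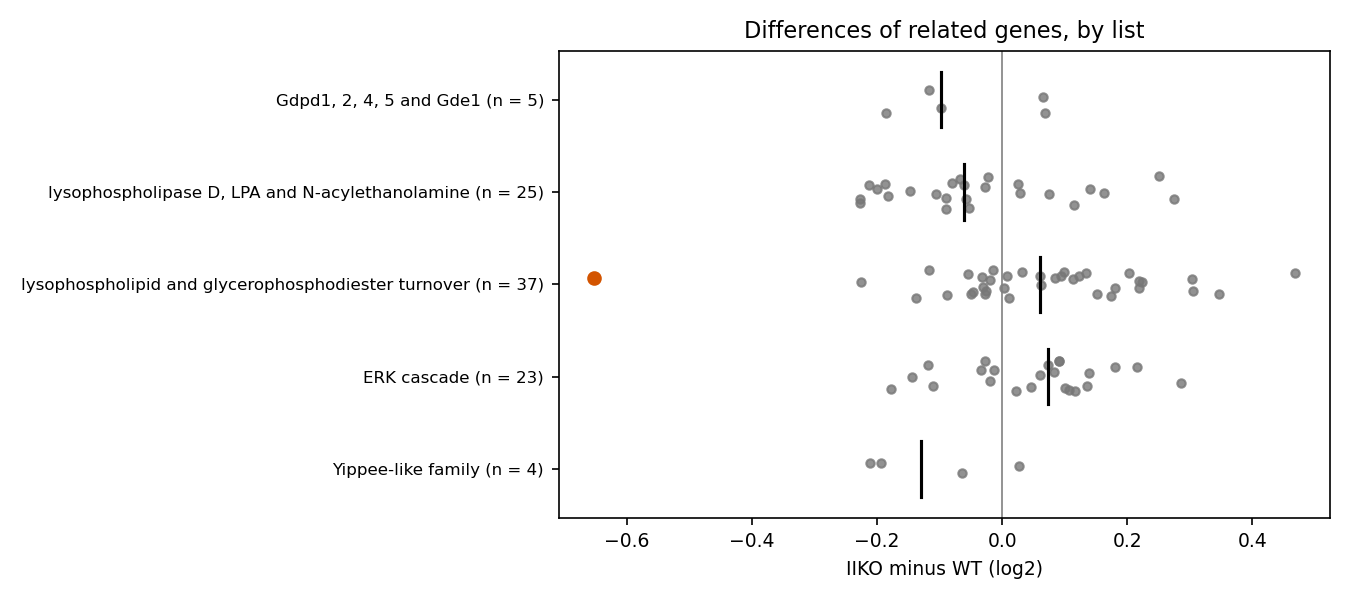
IIKO minus WT differences (log2, x axis) of single genes (points), with the median of each row as a black line. The rows are Gdpd1, Gdpd2, Gdpd4, Gdpd5 and Gde1 together, and the 4 lists of related genes. The scatter is centred near 0, and Lclat1 at -0.65 (orange) is the only point past the test.

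The cells carried the transcripts that define Tregs in both groups. Foxp3 was at 10.68 ± 0.12 in IIKO and 10.63 ± 0.04 in WT chimeras, and the mean over 5 Treg markers ranged from 11.73 to 11.86 in IIKO and from 11.71 to 11.76 in WT arrays. The mean over 4 T cell markers ranged from 11.86 to 11.89 in IIKO and from 11.81 to 11.92 in WT arrays. Il2ra, Cd4 and Cd3e did not pass the test either (limma adjusted p = 0.211, 0.289 and 0.801). The cells were sorted on CD4, TCRβ and CD25, the product of Il2ra, so high Cd4 and Il2ra say little beyond the sort. Il2ra is among the 5 Treg markers and Cd4 among the 4 T cell markers. The mean level of 8 myeloid and dendritic cell markers was 6.01 to 6.28 in IIKO and 6.08 to 6.28 in WT arrays, and that of 4 B and plasma cell markers 5.67 to 5.88 in IIKO and 5.54 to 5.96 in WT arrays. NK and CD8 T cell markers (6.87 to 6.96 in IIKO, 6.91 to 7.02 in WT arrays) and erythroid markers (6.40 to 6.67 in IIKO, 6.63 to 6.76 in WT arrays) overlapped too. Only the 9 epithelial and stromal markers did not, at 7.18 to 7.24 in IIKO and 7.24 to 7.27 in WT arrays, and 0 of them passed the test, against 0.286% of all genes. Without adjustment (limma p under 0.05), 3 of these 9 were past (1 higher and 2 lower in IIKO chimeras). So were 3 of 6 NK and CD8 T cell markers (1 higher and 2 lower) and 2 of 5 Treg markers (2 higher). Past as well were 1 of 8 myeloid and dendritic cell and 1 of 4 erythroid markers, each lower. Of B and plasma cell markers 0 of 4 were past, and of T cell markers 0 of 4. Of all genes 17.3% were past, with 5.27% higher and 12% lower. The part of these marker differences in any result above was not tested. In these bulk samples, fewer cells of a type and less RNA per cell cannot be told apart.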

How the data were processed

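RNA of sorted Tregs was profiled on 8 arrays. The authors deposited 1 log2 value for each probe set and array, which the submitters' processing notes credit to affy and RMA. Versions, parameters and build were not given in the sources used here. Array medians lay between 6.96 and 7.03, and precision is limited by the number of arrays.

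Of 34760 probe sets, 21640 had 1 symbol in the platform annotation, 1321 several and 11799 none; the last 2 kinds were left out. The probe set with the highest mean stood for each gene. No dim genes were filtered out. Groups came from the sample titles. The comparison was fitted by limma 3.58.1 under R 4.3.3 (IIKO minus WT, two-sided, Benjamini-Hochberg adjustment over all genes, threshold 0.05). The fit was tested on simulated data. Order and chromosomes came from RefSeq (GRCm38.p6). Figures were drawn with matplotlib 3.10.9.

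The members and lists were chosen with earlier results of these data known. Named are all members, neighbours past the test and the nearest on either side, up to 5 genes per direction past the test between the outermost members on chromosome 7, list genes past the test and the 3 with the smallest p, and the 5 highest and 3 lowest correlations with Gdpd3 (unnamed gene models, receptor segments and olfactory receptors left out), and Foxp3, Il2ra, Cd4 and Cd3e. The gene models Gm1966, Gm4759 and Gm8995 are named in addition. Deviations of same-numbered arrays correlated at 0.0449, -0.0147, -0.0679 and 0.22 for replicates 1 to 4. For each IIKO array the best other-numbered WT array reached 0.0558, 0.102, 0.0649 and -0.00449. Only replicate 4 correlated best with its own number, so whether the numbers pair the arrays is not settled. The main fit did not use the numbers. Alternatives were leaving out each array in turn, blocking on the replicate number, a stricter threshold (0.01), a fit over every probe set or over the mean of the probe sets of a gene, weighting the arrays, eBayes with a robust trend, only the brighter genes, and centring on medians or a second quantile normalization.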

Additional observations from a re-analysis of the deposited data

Results flagged for a closer look

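Among 36 named genes in 2 groups of 4 arrays, 72 sets in all, 6 had 1 array set apart from the other three, by a gap past the 95% critical value of Dixon's ratio; chance alone gives about 1 in 20. Gdpd2 in IIKO replicate 4 was at 6.157, with the other IIKO arrays between 5.974 and 5.986. Dnajb13 in WT replicate 4 was at 8.561, below the other WT arrays at 8.674 to 8.685. Trim68 in WT replicate 1 was at 7.712, below 7.783 to 7.785. Plpp3 in WT replicate 3 was at 6.158, above 5.885 to 5.915. Spred1 in IIKO replicate 2 was at 7.705, below 7.972 to 8.011. Cd3e in IIKO replicate 1 was at 11.83, against 11.89 in the others.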

How the results depend on the processing

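The Gdpd3 difference stayed between 6.02 and 6.30 log2 with each array left out. It was 6.15 after a second quantile normalization, 6.16 with median centring and 6.14 with array weights. These moves were less than the spread of its replicates. The rest of the 17 alternatives could not move it. They change the variance, the threshold or the genes tested, or reuse its only probe set. Of 99 values of the other 6 members, 0 passed the test (lowest limma adjusted p = 0.176), and 1 changed sign, that of Gde1 (-0.048 without IIKO replicate 1, left-out range -0.048 to 0.19). With an array left out, Gdpd1 ran from -0.26 to -0.13, Gdpd2 from -0.14 to -0.07, Gdpd4 from -0.13 to -0.09, Gdpd5 from 0.02 to 0.14 and Ypel3 from -0.15 to -0.04. Some values moved further under renormalization. A second quantile normalization gave Gdpd1 -0.11, Gdpd2 -0.02, Gdpd4 -0.06, Gdpd5 0.09, Gde1 0.03 and Ypel3 -0.14. Median centring gave -0.14, -0.05, -0.07, 0.12, 0.12 and -0.03 in the same order. Among the brighter genes Gdpd1, Gdpd2 and Gdpd4 had no value. The count of genes past the test was 57, and 21 at a threshold of 0.01. It was 31 with the replicate block, though whether the numbers pair the arrays is not settled. With an array left out it was 32 to 50 (32 without WT replicate 1 or IIKO replicate 2, 33 without WT replicate 3, 35 without IIKO replicate 3, 36 without IIKO replicate 1). Median centring gave 58 higher and 23 lower, against 32 and 25. Of the neighbours of Gdpd3, 1 passed at 0.01 or with the replicate block, and 1 or 2 with an array left out. Between Gdpd4 and Ypel3, 7 of 457 passed at 0.01 and 8 to 13 with an array left out. The turnover list had 0 past the test at 0.01, with array weights or over every probe set, and 0 or 1 with an array left out. The causes were not tested. Signal over background was not analysed here, which limits the dim genes Gdpd1 and Gdpd4 and the WT level of Gdpd3.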
